A study of Mus musculus with 6 samples.

Results

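The surfactant protein and club cell transcripts described here are 10 genes whose RNA belongs to lung epithelium, measured in lavage cells of CD44+/+ and CD44-/- mice. The genes were listed by name: the 4 surfactant protein genes Sftpa1, Sftpb, Sftpc and Sftpd, the chemokine gene Cxcl15, and the airway genes Scgb1a1, Scgb3a1, Scgb3a2, Bpifa1 and Cyp2f2. All 10 of them were found among the 24341 genes of the deposited table, and all 10 passed the filter on low values, Cxcl15 only through its CD44-/- samples. The study sequenced RNA of alveolar macrophages (AMs), the resident phagocytes of the airspaces, to compare mice with and without the hyaluronan receptor CD44. Both groups were naive female C57BL/6 mice aged 6 to 10 weeks. One group carried both functional copies of Cd44 (CD44+/+) and the other carried none in any cell, the epithelium included (CD44-/-). There were 3 samples per genotype, and each was a pool of mice. The pools were of unequal size. Cells were washed out of the airways by bronchoalveolar lavage (BAL) with buffered saline containing EDTA, red blood cells were lysed, and RNA was extracted from the lavage cells with no sorting step named.

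Epithelial cells line the surfaces that a lavage rinses. Alveolar type 2 cells make surfactant, a film of lipid and protein that keeps the alveoli from collapsing, and they store it in lamellar bodies until it is secreted. Surfactant proteins B and C are small hydrophobic proteins that work within the lipid film, whereas surfactant proteins A and D are large collagen-containing lectins (collectins) that bind microbes. Club cells are the secretory cells of the small airways, and they release secretoglobins into the lining fluid and metabolize inhaled chemicals. AMs take up used surfactant, but the 10 genes are classically assigned to epithelium rather than to AMs, so the transcripts are described as RNA of epithelial origin in the lavage. Which cells held the RNA was not measured. The words CD44+/+ AMs and CD44-/- AMs below name the lavage samples of a genotype and not the cells that held a transcript.

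Values are FPKM, fragment numbers that are scaled to transcript length and to the fragments mapped in a sample. Because of the scaling to length, levels of different genes can be set side by side. Fold changes are CD44-/- over CD44+/+ and were computed by limma on log2(FPKM + 0.1). The p-values measure how pools, rather than single mice, differed, and the exact permutation test of 3 against 3 samples cannot give a p below 0.1. In pooled RNA, fewer cells of a type and less RNA per cell cannot be told apart. FPKM gives a gene's share of the RNA in a sample and not an amount. The paper reports fewer AMs in CD44-/- mice. A change in epithelial RNA therefore cannot be told apart from a change in the AM RNA around it.

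The region before the transcription start was read from RefSeq (GRCm38.p6) for the 6 genes that matched the promoter table, and 4 are printed because Sftpa1, Sftpb, Sftpc and Cxcl15 on the one hand and the airway genes on the other varied as separate groups among the samples. Sftpa1 and Sftpb stand for the first group, and Scgb3a1 and Bpifa1 for the second. Each run is the 250 bases upstream of the start, 5′ to 3′, at chr14:41131538-41131787 for Sftpa1, chr6:72304360-72304609 for Sftpb, chr11:49663345-49663594 for Scgb3a1 and chr2:154142630-154142879 for Bpifa1, all on the plus strand. Capitals mark matches on either strand to 4 motifs chosen after the values were seen.
Sftpa1: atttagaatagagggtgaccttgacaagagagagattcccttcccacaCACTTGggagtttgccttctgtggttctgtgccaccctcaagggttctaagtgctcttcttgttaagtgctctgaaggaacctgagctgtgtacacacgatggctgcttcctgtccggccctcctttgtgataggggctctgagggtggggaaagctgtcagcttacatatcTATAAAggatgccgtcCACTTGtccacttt
Sftpb: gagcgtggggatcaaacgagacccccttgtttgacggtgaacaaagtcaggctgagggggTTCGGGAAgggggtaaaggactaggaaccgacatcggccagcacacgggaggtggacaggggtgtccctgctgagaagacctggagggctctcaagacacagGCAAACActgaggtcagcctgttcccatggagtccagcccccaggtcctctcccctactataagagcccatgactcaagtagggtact
Scgb3a1: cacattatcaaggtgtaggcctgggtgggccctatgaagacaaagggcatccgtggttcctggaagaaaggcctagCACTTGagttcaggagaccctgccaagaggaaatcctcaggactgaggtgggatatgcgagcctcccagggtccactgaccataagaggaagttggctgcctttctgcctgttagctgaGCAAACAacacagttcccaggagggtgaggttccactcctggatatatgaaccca
Bpifa1: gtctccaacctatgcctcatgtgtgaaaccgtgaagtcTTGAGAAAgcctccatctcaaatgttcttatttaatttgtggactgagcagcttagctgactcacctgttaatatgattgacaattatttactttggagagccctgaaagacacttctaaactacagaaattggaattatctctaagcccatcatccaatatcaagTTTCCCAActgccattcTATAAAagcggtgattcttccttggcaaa
The motifs were the TATA box TATAAA, the Nkx2-family motif CAAGTG, the forkhead motif TGTTTNC and the C/EBP motif TTNNGNAA, and no base was shared by matches of different motifs. Among 32851 promoter windows of the same length, 12.4% held the TATA box, 11.6% the Nkx2-family motif, 17.8% the forkhead motif and 36.8% the C/EBP motif. A TATA box began at position -30 in Sftpa1 and at -29 in Bpifa1, counting -1 as the last base before the start. The Nkx2-family letters occurred in Sftpa1, with 2 matches, and in Scgb3a1, with 1. A forkhead match lay at -88 in Sftpb and at -55 in Scgb3a1. C/EBP letters occurred in Sftpb, with 1 match, and in Bpifa1, with 2. Of the windows not printed, that of Cxcl15 held a TATA box at -27 and that of Cyp2f2 held an Nkx2-family match at -191. Sftpc, Sftpd, Scgb1a1 and Scgb3a2 had no entry in the promoter table. A match is a description of letters and not of a bound site.

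Across the samples the depth was similar. Steps between low values put the fragments behind each sample between 15.1 M and 19.6 M, an estimate that assumes single fragments at the lowest steps. Cd44 averaged 534 ± 6.68 FPKM (SD, n = 3) in CD44+/+ and 53.5 ± 1.87 FPKM in CD44-/- AMs (log2 fold change -3.32, limma adjusted p = 4.19e-09), in accord with the labels. The 16 AM markers in the table summed to between 20600 and 25000 FPKM in every sample, led by Chil3 at 10300 to 14200 FPKM. Erythroid genes summed to 17.3 FPKM in CD44+/+ replicate 2 and 56.5 FPKM in CD44-/- replicate 2, against 2.12 to 5.2 FPKM in the other samples. Neutrophil genes summed to between 62.6 and 102 FPKM, with the granule genes Camp, Ngp and Elane listed at 0, and lymphocyte genes to between 0.75 and 2.53 FPKM. None of the 16 AM markers, 3 erythroid genes and 6 neutrophil genes that were tested passed an adjusted p of 0.05 (limma), and 3 of them (Krt79 lower, Mmp8 and Csf3r higher in CD44-/- AMs) had an unadjusted p under 0.05, where 7.69% of all tested genes did. The part of other cells in the results below was not tested.

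Comparison of the genotypes asked whether epithelial RNA, as a share of the lavage RNA, differed between CD44+/+ and CD44-/- mice. None of the 10 genes passed an adjusted p of 0.05 (0 of 10, limma), where 0.111% of all 10800 tested genes did. At an unadjusted p under 0.05 the count was 3 of 10, namely Sftpb, Sftpc and Cxcl15, all higher in CD44-/- AMs, where 7.69% of tested genes passed in either direction and 4.75% in that direction. This count ran from 1 to 5 over the alternative settings, and Sftpb was in it under each of them. Sftpb alone was left with no filter on low values, with eBayes without a trend, or without CD44+/+ replicate 2 or CD44-/- replicate 3. The groups did not overlap for 2 of 10, Sftpb and Cxcl15, both higher in CD44-/- AMs, where 11.6% of tested genes did not overlap in either direction and 6.75% in that direction. Cxcl15 averaged under 0.5 FPKM in CD44+/+ AMs and so entered the test through the group where it was high, which means that its place in these counts is a description and supports nothing about the set. None of the 10 lay wholly lower in CD44-/- AMs, as 4.88% of tested genes did. The 5 surfactant and chemokine genes had log2 fold changes above 0, and no median is given because it would be the value of Cxcl15. Sftpa1 had 0.82, Sftpb 1.24, Sftpc 1.44 and Sftpd 0.08. The 5 airway genes had values below 0 (median -0.35). Of all tested genes, 55.8% lay above 0, and their median was 0.01. The signs of Sftpd, Scgb3a1 and Cyp2f2 turned when 1 sample was left out (Sftpd to -0.12 without CD44-/- replicate 1, Scgb3a1 to 0.12 without CD44-/- replicate 3, Cyp2f2 to 0.0006 without CD44+/+ replicate 2). In the plot of FPKM by sample, the sample that stood highest was CD44-/- replicate 3 for 4 of the 5 genes of the first set and CD44+/+ replicate 2 for the 5 airway genes.

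**Figure D1:**
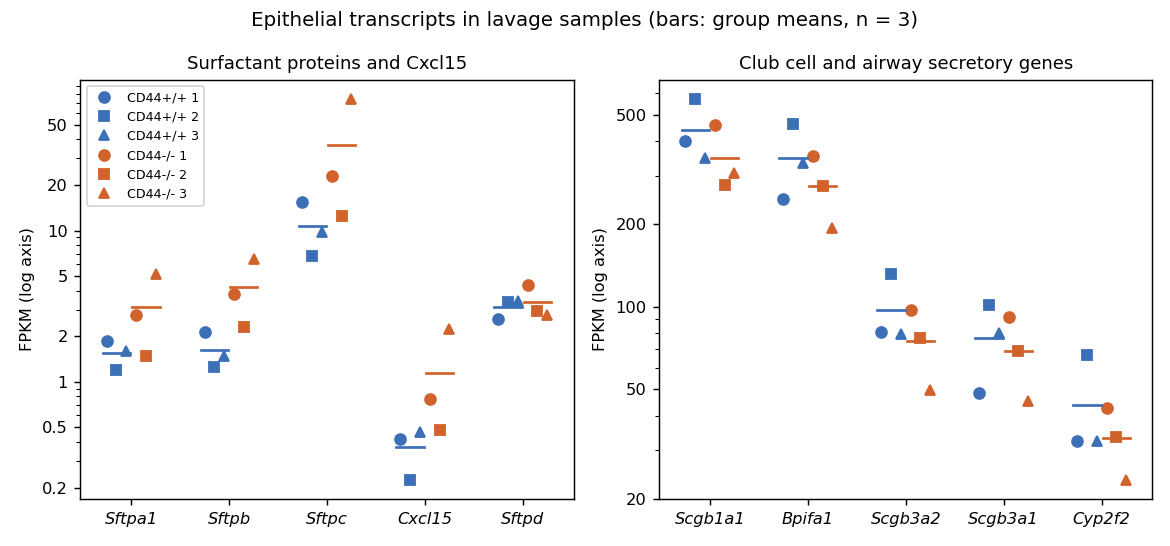
FPKM (log axis) of the 10 genes in each of the 3 CD44+/+ (blue) and 3 CD44-/- (orange) samples, with horizontal bars at the group means. CD44-/- replicate 3 is the highest sample for Sftpa1, Sftpb, Sftpc and Cxcl15, whereas CD44+/+ replicate 2 is the highest for all 5 genes on the right.

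Among the hydrophobic surfactant proteins, Sftpc had the higher level. Sftpc encodes surfactant protein C, which is made only by type 2 cells in the adult lung, and lies at chr14:70520942-70524081 on the minus strand of mm10 (GRCm38). Its level was 15.5, 6.83 and 9.72 FPKM in the CD44+/+ samples, given here and throughout from replicate 1 to replicate 3, and 22.8, 12.4 and 74.2 FPKM in the CD44-/- samples. CD44-/- replicate 3 stood apart, at 10.9 times the lowest sample, and the groups overlapped because CD44+/+ replicate 1 exceeded CD44-/- replicate 2. The means were 10.7 ± 4.41 and 36.5 ± 33.1 FPKM (SD, n = 3), a fold of 3.41. On the log2 scale the difference was 1.44 (SE 0.57, 95% interval 0.14 to 2.74), with a limma adjusted p of 0.591 and an exact two-sided permutation p of 0.2. Without CD44-/- replicate 3 the fold of the means was 1.65.

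Sftpb encodes surfactant protein B, without which the lipid film cannot form, and lies at chr6:72304610-72314373 on the plus strand. It was measured at 2.13, 1.26 and 1.48 FPKM in the CD44+/+ samples and at 3.8, 2.32 and 6.53 FPKM in the CD44-/- samples. Every CD44-/- sample exceeded every CD44+/+ sample, and the closest values were 2.32 and 2.13 FPKM. The means were 1.62 ± 0.451 and 4.22 ± 2.14 FPKM, a fold of 2.6, and 1.89 without CD44-/- replicate 3. The log2 fold change was 1.24 (SE 0.34, 95% interval 0.46 to 2.01), the limma adjusted p was 0.369 and the exact permutation p was 0.1, the smallest the design allows. Sftpb had the smallest unadjusted limma p of the 10 genes, 0.00588.

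The collectins did not behave alike. Sftpa1, encoding surfactant protein A at chr14:41131788-41136373 on the plus strand, was measured at 1.85, 1.2 and 1.59 FPKM in CD44+/+ and 2.78, 1.48 and 5.13 FPKM in CD44-/- AMs. As with Sftpc, CD44-/- replicate 3 was highest and CD44+/+ replicate 2 lowest, and CD44-/- replicate 2 lay within the CD44+/+ range. The labels pair no samples, and pairs by replicate number were taken from these same data. Between samples of the same number, the CD44-/- sample was higher in 3 of 3 pairs for Sftpa1, Sftpb and Sftpc. This was also so for Cxcl15, which passed the filter only through its CD44-/- samples. It was higher in 1 of 3 pairs for Sftpd and each of the 5 airway genes. The share of all tested genes was not computed, so nothing is read from these counts. The means of 1.55 ± 0.327 and 3.13 ± 1.85 FPKM differed by 0.82 on the log2 scale (SE 0.38, 95% interval -0.04 to 1.69; limma adjusted p = 0.678, exact permutation p = 0.3). With the replicate number as a block, a pairing that the labels do not give, the unadjusted limma p of Sftpa1 went from 0.0592 to 0.0184. The adjusted p was 0.394. The fold of the means was 2.02, and 1.38 without CD44-/- replicate 3.

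Sftpd, encoding surfactant protein D, is a neighbour of Sftpa1 on the same chromosome at chr14:41172212-41185198, on the minus strand. Its level was 2.61, 3.39 and 3.41 FPKM in CD44+/+ and 4.37, 2.96 and 2.75 FPKM in CD44-/- AMs. The 6 values spanned a factor of 1.67, the narrowest of the 10 genes, and CD44-/- replicate 3 was the second lowest sample. The means of 3.14 ± 0.456 and 3.36 ± 0.881 FPKM differed by 0.08 on the log2 scale (SE 0.19, 95% interval -0.35 to 0.50; limma adjusted p = 0.978, exact permutation p = 0.8). Sftpd is made by airway secretory cells as well as by type 2 cells, and whether this bears on its values was not tested. The ratio of Sftpd to Sftpa1 ran from 0.536 in CD44-/- replicate 3 to 2.83 in CD44+/+ replicate 2, a range of 5.27-fold, whereas Sftpd to Scgb1a1 ranged 1.8-fold. Without CD44-/- replicate 3 these ranges were 2.01-fold and 1.8-fold, so the contrast rested on that sample.

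Cxcl15 encodes lungkine, a neutrophil-attracting chemokine of the lung epithelium, and lies at chr5:90794534-90803067 on the plus strand. It was the lowest of the 10, at 0.417, 0.225 and 0.467 FPKM in CD44+/+ and 0.766, 0.477 and 2.22 FPKM in CD44-/- AMs. The groups did not overlap, but CD44-/- replicate 2 and CD44+/+ replicate 3 were nearly equal, at 0.477 and 0.467 FPKM. The means of 0.37 ± 0.128 and 1.15 ± 0.934 FPKM differed by 1.2 on the log2 scale (SE 0.49, 95% interval 0.08 to 2.32; limma adjusted p = 0.617, exact permutation p = 0.1). With a pseudocount of 1 the log2 difference was 0.57, and the fold of the mean FPKM was 3.12, and 1.68 without CD44-/- replicate 3.

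Cxcl15 had the lowest FPKM, and its counting error was estimated. By the estimated depth, its values rested on about 16, 8 and 19 fragments in CD44+/+ and about 30, 15 and 82 fragments in CD44-/- AMs. Exact Poisson intervals, which cover counting error only, ran from 0.267 to 0.787 FPKM for CD44-/- replicate 2 and from 0.281 to 0.729 FPKM for CD44+/+ replicate 3, so these samples were not distinguishable at this depth. The interval of CD44-/- replicate 3, 1.77 to 2.76 FPKM, lay above those of all the other samples, of which the highest was 0.517 to 1.09 FPKM in CD44-/- replicate 1.

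Of the airway genes, Scgb1a1 and Bpifa1 exceeded every surfactant gene in every sample. Scgb1a1, the club cell secretoglobin gene (chr19:9083642-9087956, minus strand), ranked 145 by its CD44+/+ mean among the genes of the table. Its level was 402, 571 and 348 FPKM in CD44+/+ and 458, 277 and 307 FPKM in CD44-/- AMs. CD44+/+ replicate 2 was highest, CD44-/- replicate 2 lowest, and CD44-/- replicate 1 exceeded 2 of the 3 CD44+/+ samples. The means of 440.0 ± 116 and 347 ± 97.0 FPKM differed by -0.35 on the log2 scale (SE 0.21, 95% interval -0.83 to 0.14; limma adjusted p = 0.822, exact permutation p = 0.4). The log2 difference was -0.14 without CD44+/+ replicate 2, -0.20 without CD44-/- replicate 2 and -0.56 without CD44-/- replicate 1.

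Scgb3a2 and Scgb3a1 encode the other secretoglobins of the airway lining. Scgb3a2, on chromosome 18, was measured at 81.1, 131 and 79.6 FPKM in CD44+/+ and 97.6, 77.1 and 49.7 FPKM in CD44-/- AMs, with means of 97.1 ± 29.0 and 74.8 ± 24.0 FPKM. CD44+/+ replicate 2 was again highest, and CD44-/- replicate 3 was lowest. Its log2 fold change was -0.39 (SE 0.26, 95% interval -0.98 to 0.19; limma adjusted p = 0.841, exact permutation p = 0.4), and it was -0.16 without CD44+/+ replicate 2, -0.12 without CD44-/- replicate 3 and -0.61 without CD44-/- replicate 1. Scgb3a1, at chr11:49663595-49665118 on the plus strand, was measured at 48.5, 101 and 80.4 FPKM in CD44+/+ and 91.8, 68.8 and 45.5 FPKM in CD44-/- AMs. For Scgb3a1, CD44+/+ replicate 1 was nearly as low as CD44-/- replicate 3, so the groups covered almost the same range. The means were 76.7 ± 26.5 and 68.7 ± 23.1 FPKM, and the log2 fold change was -0.15 (SE 0.30, 95% interval -0.83 to 0.53; limma adjusted p = 0.971, exact permutation p = 0.7).

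Bpifa1, also known as Splunc1, encodes a secreted lipid-binding defence protein of the upper airways and lies at chr2:154142880-154149217 on the plus strand. Its level was 247, 464 and 333 FPKM in CD44+/+ and 354, 274 and 194 FPKM in CD44-/- AMs, which made it the second most abundant of the 10 genes. The order of the samples was that of Scgb3a1, from CD44+/+ replicate 2 down to CD44-/- replicate 3. The means of 348 ± 109 and 274 ± 80.0 FPKM differed by -0.34 on the log2 scale (SE 0.25, 95% interval -0.92 to 0.24; limma adjusted p = 0.872, exact permutation p = 0.5). Without CD44+/+ replicate 2, and likewise without CD44-/- replicate 3, the difference was -0.11, and it was -0.56 without CD44+/+ replicate 1 and -0.55 without CD44-/- replicate 1.

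Cyp2f2 encodes the cytochrome P450 with which mouse club cells oxidize naphthalene, and lies at chr7:27119955-27133660 on the plus strand. It was measured at 32.3, 66.4 and 32.3 FPKM in CD44+/+ and 42.9, 33.6 and 23.4 FPKM in CD44-/- AMs. CD44+/+ replicate 2 lay above all the other samples, and the remaining CD44+/+ samples fell among the CD44-/- samples. The means of 43.7 ± 19.7 and 33.3 ± 9.75 FPKM differed by -0.35 on the log2 scale (SE 0.30, 95% interval -1.02 to 0.33; limma adjusted p = 0.917, exact permutation p = 0.7).

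By mean level over the 6 samples, the order was Scgb1a1 (394 FPKM), Bpifa1 (311), Scgb3a2 (85.9), Scgb3a1 (72.7), Cyp2f2 (38.5), Sftpc (23.6), Sftpd (3.25), Sftpb (2.92), Sftpa1 (2.34) and Cxcl15 (0.762). In CD44-/- AMs alone, the mean of Sftpc (36.5) was above that of Cyp2f2 (33.3), and that of Sftpb (4.22) above that of Sftpd (3.36). The values of Scgb1a1 and Bpifa1 overlapped over the samples, as did those of Scgb3a2, Scgb3a1 and Cyp2f2, and those of Sftpd, Sftpb, Sftpa1 and Cxcl15 between neighbours. Values of Cyp2f2 and Sftpc also overlapped, because Sftpc in CD44-/- replicate 3 exceeded Cyp2f2 in every sample. Together the 10 genes made up 0.141% to 0.272% of all FPKM in a sample, and the 4 surfactant proteins 0.00256% to 0.0176%. The share of the 10 was lowest in CD44-/- replicate 3 and highest in CD44+/+ replicate 2, while the share of the surfactant proteins had the opposite order at both ends.

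The 10 genes varied widely between samples. Within a genotype, the pooled SD of log2(FPKM + 0.1) ran from 0.29 for Sftpd to 1.01 for Sftpc. Over all 6 samples, the genotype difference included, this SD ran from 0.26 for Sftpd to 1.2 for Sftpc, with a median of 0.49, where the median tested gene had 0.11. Sftpc stood at percentile 99.5 of all tested genes by the SD over 6 samples, Cyp2f2 at 97.4, Scgb1a1 at 95 and Sftpd at 89.1. The plot of fold changes shows how far each rested on single samples. Leaving out CD44-/- replicate 3 gave the smallest log2 fold changes of Sftpa1 (0.39), Sftpb (0.87) and Sftpc (0.73), and left Cxcl15 below the filter on low values. Leaving out CD44+/+ replicate 2 moved Cyp2f2 to 0.0006 and Scgb3a1 to 0.08.

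**Figure D2:**
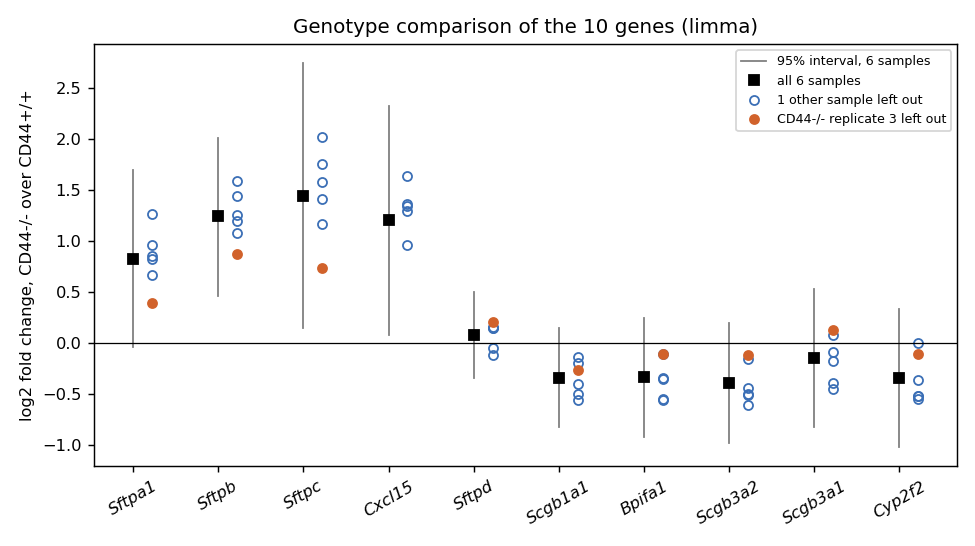
Log2 fold change (CD44-/- over CD44+/+, limma) of each gene from all 6 samples (black squares with 95% intervals) and with 1 sample left out in turn (circles; orange where CD44-/- replicate 3 was left out, a value Cxcl15 lacks because it fell below the filter). The intervals of Sftpb, Sftpc and Cxcl15 lie above 0 before adjustment for multiple testing, and those of the other 7 genes cross 0.

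How the genes varied together was then described, with no test, since the groups below were formed after the values were seen. Sftpa1, Sftpb, Sftpc and Cxcl15 were all highest in CD44-/- replicate 3 (4 of 4, against 12.2% of all tested genes) and all lowest in CD44+/+ replicate 2. The grouping itself fixed this count, and Cxcl15 passed the filter only through its CD44-/- samples, so nothing is read from the share. Their mean deviation from each gene's own mean was -0.22, -1.01 and -0.53 in CD44+/+ AMs and 0.44, -0.31 and 1.63 in CD44-/- AMs, on the log2 scale. The 5 airway genes were all highest in CD44+/+ replicate 2 (5 of 5, against 12.8% of tested genes), and 4 of 5 were lowest in CD44-/- replicate 3 (against 18.1%). Their mean deviations were -0.18, 0.66 and 0.0 in CD44+/+ and 0.28, -0.16 and -0.58 in CD44-/- AMs. The groups thus lay apart in CD44+/+ replicate 2 and CD44-/- replicate 3, whereas in the other 4 samples the mean of the first group minus that of the airway genes lay between -0.53 and 0.17. CD44-/- replicate 1, in contrast, lay above the mean in both groups, and Sftpd peaked in that sample.

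**Figure D3:**
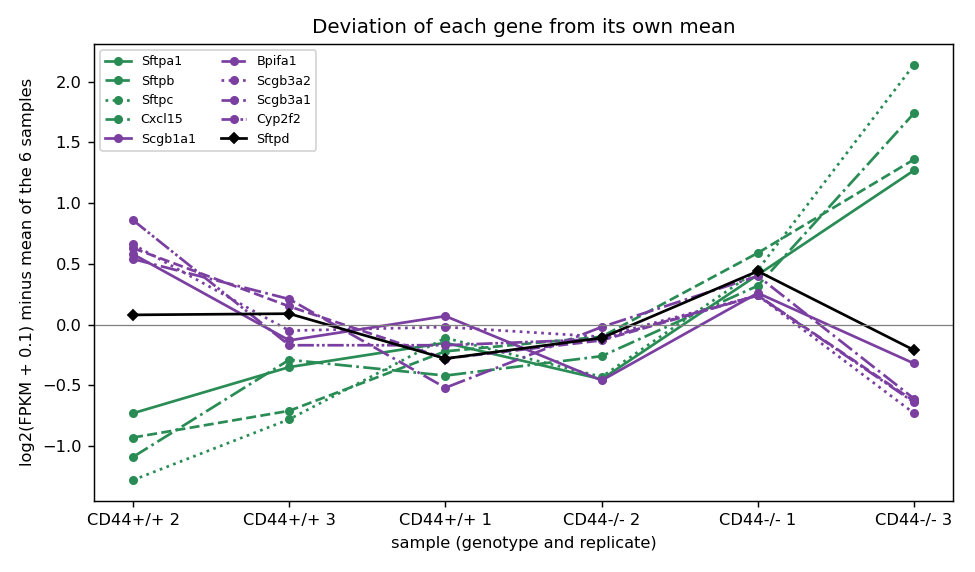
Deviation of log2(FPKM + 0.1) from each gene's mean over the 6 samples, with the samples of each genotype ordered by the mean of Sftpa1, Sftpb, Sftpc and Cxcl15 (green). These 4 genes end at 1.63 on average in CD44-/- replicate 3, where the 5 airway genes (purple) average -0.58, and Sftpd (black) follows neither set throughout.

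Ratios of members within a sample were also read, since they need no reference to other genes. Sftpc to Scgb1a1 was 0.0386, 0.012 and 0.0279 in CD44+/+ AMs and 0.0498, 0.0448 and 0.242 in CD44-/- AMs. The CD44-/- samples lay above the CD44+/+ samples, narrowly so at 0.0448 against 0.0386, and the range was 20.2-fold, or 4.15-fold without CD44-/- replicate 3. Within the sets, Scgb3a2 to Cyp2f2 kept between 1.97 and 2.51, a range of 1.28-fold, the narrowest of the airway ratios computed. Scgb1a1 to Cyp2f2, Bpifa1, Scgb3a2 and Scgb3a1 ranged 1.59-fold, 1.61-fold, 1.72-fold and 2.06-fold. The ratio of Sftpb to Sftpa1 lay between 0.932 and 1.57, and Sftpb to Cxcl15 between 2.94 and 5.59. Sftpc to Sftpb lay between 5.35 and 7.29 in 5 samples and at 11.4 in CD44-/- replicate 3. The ratio of the AM transcript Chil3 to Scgb1a1 ran from 23.6 to 46.3, and that of Chil3 to Sftpc from 191 to 1980.

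The genes with the pattern most like that of Sftpc, by Pearson correlation of log2(FPKM + 0.1) over the 6 samples among 191 genes whose SD was at least 0.5 of that of Sftpc, were Sftpa1 (0.985), Cxcl15 (0.975) and Sftpb (0.974). All genes of a sample share 1 library, so these values are descriptions. Dusp1, a phosphatase gene induced within minutes of many stimuli, came next (0.881), at 23.4, 13.2 and 29.8 FPKM in CD44+/+ and 36.5, 31.2 and 61.1 FPKM in CD44-/- AMs. Like Sftpa1, Sftpb and Sftpc it was highest in CD44-/- replicate 3 and lowest in CD44+/+ replicate 2, and its part in these results was not tested. The other 4 of the 8 closest were the small RNA genes Snora44, Mir1291, Snord57 and Snord8, each listed at 0 in 5 samples and above 0 in CD44-/- replicate 3, where Snord57 was listed at 2180 FPKM.

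For Scgb1a1, the 8 closest of 2134 genes, chosen by the same rule on SD, were 9330179D12Rik (0.938), Zfp296, Cyp4b1 (0.914), Chad, Tma16, Mfng, Muc1 and Tpst1 (0.889). Cyp4b1, another cytochrome P450 of club cells, was measured at 1.75, 4.02 and 1.86 FPKM in CD44+/+ and 2.14, 1.39 and 1.64 FPKM in CD44-/- AMs. Muc1, a membrane mucin of epithelial surfaces, lay between 1.45 and 2.68 FPKM and was likewise highest in CD44+/+ replicate 2. The members came later in this order, with Cyp2f2 at rank 18 (0.849), Scgb3a2 at 26 (0.827), Bpifa1 at 54 (0.762), Scgb3a1 at 185 (0.6) and Sftpd at 295 (0.487).

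Other genes of the surfactant pathway were read from a list of 6 genes that process, package or transport surfactant, of which 4 were tested and 0 passed (2 with higher and 2 with lower means in CD44-/- AMs). Ctsh and Napsa, proteases that trim the proforms of surfactant proteins B and C, lay at 294 to 321 FPKM and 47.3 to 61.7 FPKM. Abca3, the lipid pump of the lamellar body, lay at 23.8 to 27.9 FPKM. These levels were above those of Sftpb, and none of the 3 shared its order of samples. A place on a list does not say which cells held the RNA, here or for the lists below. Lpcat1, which makes surfactant phosphatidylcholine, was measured at 3.05, 2.69 and 3.55 FPKM in CD44+/+ and 4.51, 3.81 and 3.71 FPKM in CD44-/- AMs, without overlap (log2 fold change 0.37, limma adjusted p = 0.532).

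The 2 genes of that list below the filter were listed at low levels. Lamp3, a lamellar body membrane protein, was listed at 0.143, 0.0173 and 0.0606 FPKM in CD44+/+ and 0.372, 0.137 and 0.457 FPKM in CD44-/- AMs. Slc34a2, the phosphate transporter of type 2 cells, was listed at 0.352, 0.137 and 0.228 FPKM in CD44+/+ and 0.472, 0.0777 and 0.925 FPKM in CD44-/- AMs. Lamp3 had the same order of samples as Sftpc, and Slc34a2 was also highest in CD44-/- replicate 3 but lowest in CD44-/- replicate 2. Neither gene was tested and their counting error was not estimated, so nothing is read from these orders.

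Of 8 further type 2 cell genes, only Muc1 passed the filter on low values (log2 fold change -0.37, limma adjusted p = 0.799). Sfta2, a surfactant-associated protein, was listed at 0 in the 3 CD44+/+ samples and at 0.174, 0.184 and 1.3 FPKM in the CD44-/- samples. Nkx2-1, the transcription factor of lung epithelium, was listed at 0.389, 0.315 and 0.252 FPKM in CD44+/+ and 0.666, 0.475 and 0.436 FPKM in CD44-/- AMs. Etv5, a transcription factor of type 2 cells, averaged 0.461 FPKM in CD44+/+ and 0.405 FPKM in CD44-/- AMs, and the chitinase gene Chia1 averaged 0.101 and 0.0675 FPKM. Of the 8 genes, 5 had a higher and 3 a lower mean in CD44-/- AMs, and 4 were highest in CD44-/- replicate 3. The 7 below the filter were not tested and their counting error was not estimated, so nothing is read from these counts or values.

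Among 20 other airway secretory genes, 18 were tested, 17 had lower and 1 had a higher mean in CD44-/- AMs, and 0 passed (median log2 fold change -0.2, lowest limma adjusted p 0.708, none with an unadjusted p under 0.05). Of the 18 tested genes, 15 were highest in CD44+/+ replicate 2, as the 5 airway members were, against 12.8% of all tested genes. Bpifb1, a relative of Bpifa1, lay at 13.3, 16.8 and 16 FPKM in CD44+/+ and 21.5, 10.6 and 8.37 FPKM in CD44-/- AMs. Reg3g, an antimicrobial lectin, lay at 30.9, 68.3 and 62.7 FPKM in CD44+/+ and 89.7, 39.3 and 32.3 FPKM in CD44-/- AMs. These 2 genes peaked in CD44-/- replicate 1. Gsto1 had the highest level on the list, at 205 to 230 FPKM, and varied the least, by 1.12-fold.

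**Figure D4:**
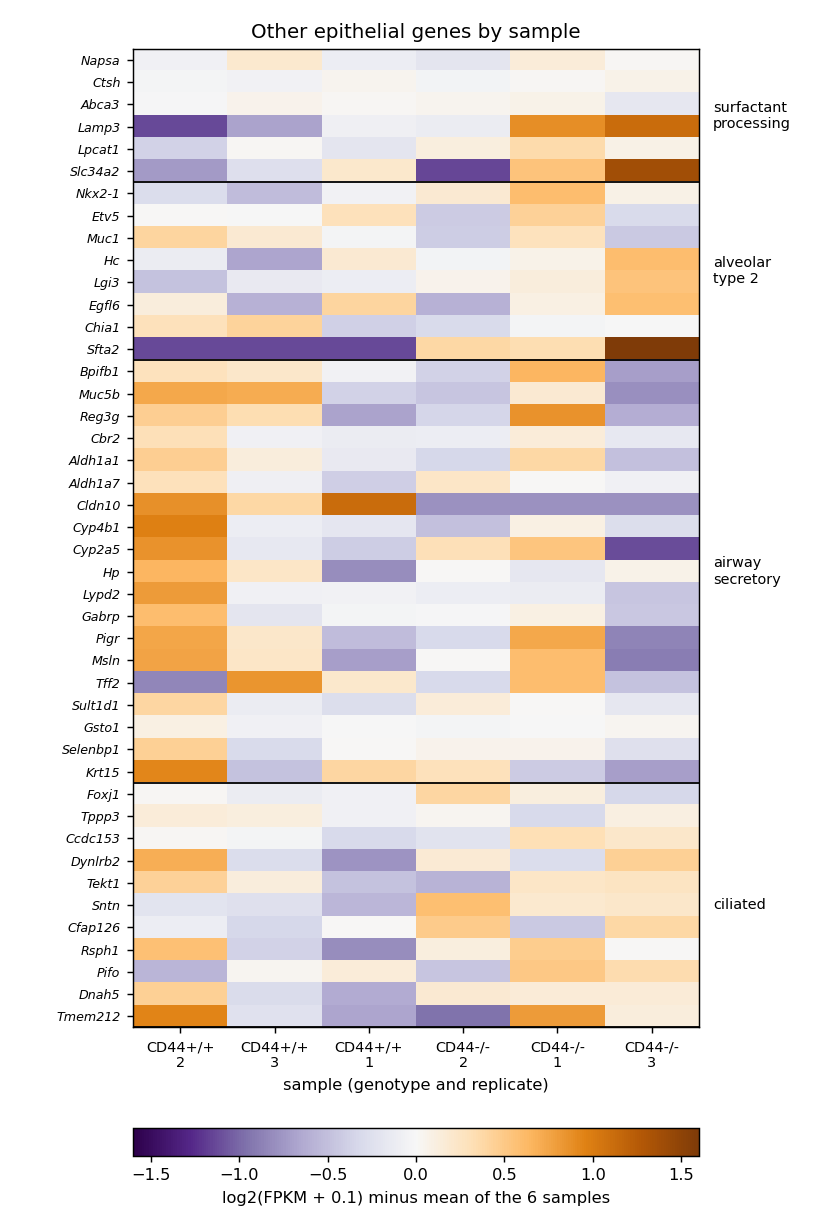
Deviation of log2(FPKM + 0.1) from the mean of the 6 samples (colour) for 44 genes of the epithelial lists (rows) with a mean of at least 0.05 FPKM, in the samples (columns) ordered as in the plot of deviations of the 10 genes. Orange is above and purple below the gene's mean, and 15 of the 18 tested airway secretory genes are highest in CD44+/+ replicate 2.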

How the data were processed

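RNA of BAL cells from CD44+/+ and CD44-/- mice was sequenced as 3 pools per genotype. The authors aligned reads to mm10 and deposited FPKM values; STAR, Cufflinks and Cuffdiff are named in the submitters' processing notes. The authors' Cuffdiff fold changes, p-values and q-values in the table were not used. Gene name and position columns follow another order than the gene identifiers and values (0 rows match), so positions were looked up by gene name and given from a first base of 1. Rapgef6 lacked 1 value and was left out, and 101 identifiers hold several gene names. The number of sample columns without a label was 0.

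The 10800 genes averaging at least 0.5 FPKM were compared on log2(FPKM + 0.1), two-sided, with limma 3.58.1 (R 4.3.3, lmFit and eBayes with trend) and Benjamini-Hochberg adjustment over all of them. Exact permutation tests of mean FPKM used scipy 1.17.1 (Python 3.11.15). A fold change on this scale understates the change of low genes. The limma fit was also run on simulated data, and nothing in the results rests on that run. Depth was estimated from the lowest steps in genes with 1 transcript in GENCODE vM21.

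The 10 genes and all lists were chosen with earlier results of these data known. Genes named are the 10, Cd44, members of the lists of epithelial and other cell types, and for Sftpc and Scgb1a1 the 8 genes of most like pattern. The lists cover surfactant processing, other type 2, airway secretory, ciliated, type 1 and basal cells, keratin and junction genes, AMs, erythroid cells, neutrophils, lymphocytes, and fibroblasts with endothelium. Same-numbered samples deviated together from their group means (correlation across genes 0.212, 0.132 and 0.211 for replicates 1, 2 and 3); this pairing comes from the data and not from the labels. Alternatives were other pseudocounts, filters, scalings and variance settings, the replicate block, and each sample left out.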

Additional observations from a re-analysis of the deposited data

How the results depend on the processing

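None of the genes passed an adjusted p of 0.05 under any alternative (0 of 10, or 0 of 9 where Cxcl15 fell below the filter). Under the replicate block, 9 genes of the table were called, adjusted p for the 10 lay between 0.236 (Sftpb) and 0.946 (Sftpd), and the unadjusted p of Sftpa1 went from 0.0592 to 0.0184. Over all genes, 12 were called, 7 with no filter on low values, and between 6 and 36 with 1 sample left out (7 without CD44+/+ replicate 2 and 6 without CD44-/- replicate 2; 36 without CD44+/+ replicate 1 and 22 without CD44-/- replicate 1). Signs turned where 1 sample was left out: Sftpd ranged from -0.12 to 0.20, at -0.05 without CD44+/+ replicate 1 and -0.12 without CD44-/- replicate 1; Scgb3a1 from -0.45 to 0.12, at 0.08 without CD44+/+ replicate 2 and 0.12 without CD44-/- replicate 3; and Cyp2f2 from -0.55 to 0.0006, the latter without CD44+/+ replicate 2. Removing 1 sample leaves fewer values; beyond that, the cause was not tested. With 1 sample left out, Sftpa1 ranged from 0.39 to 1.26, Sftpb from 0.87 to 1.59, Sftpc from 0.73 to 2.02, Cxcl15 from 0.96 to 1.63, Scgb1a1 from -0.56 to -0.14, Scgb3a2 from -0.61 to -0.12 and Bpifa1 from -0.56 to -0.11. Cxcl15 was at 0.57 with a pseudocount of 1, and had no value without CD44-/- replicate 3 or at a mean of at least 1 FPKM. Depth limits Cxcl15, at about 8 to 82 fragments.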

Other observations

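Genes listed for other epithelial cells were also read, and the cells that held their RNA were not identified. The paper describes the lavage cells of naive mice as nearly all AMs. Of 12 ciliated cell genes, 8 were tested and 0 passed (6 with higher and 2 with lower means in CD44-/- AMs, median log2 fold change 0.22). An unadjusted limma p under 0.05 was found for 1 of 8, Sntn, against 7.69% of all tested genes. Sntn was higher in CD44-/- AMs (log2 fold change 0.66, limma adjusted p = 0.562). Foxj1, the transcription factor of ciliated cells, lay at 0.87 to 1.5 FPKM, whereas Tppp3, which was counted in the same list, lay at 216 to 298 FPKM. Of the 8 tested genes, 4 were highest in CD44+/+ replicate 2, against 12.8% of all tested genes. Of all 12 genes the count was 7, which includes genes below the filter. The 5 basal cell genes were all below the filter and summed to between 0.0754 and 0.73 FPKM.

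Of 10 alveolar type 1 cell genes, 7 were tested and 0 passed (4 higher, 3 lower, median 0.14), and 3 of 7 (Ager and Pdpn higher, Cav1 lower) had an unadjusted limma p under 0.05, against 7.69% of all tested genes. Ager, the type 1 cell receptor for glycated proteins, was measured at 0.937, 0.952 and 1.16 FPKM in CD44+/+ and 2.5, 1.39 and 1.49 FPKM in CD44-/- AMs, and its groups did not overlap (log2 fold change 0.72, limma adjusted p = 0.476). Cav1, the caveolin gene, was measured at 43.1, 44.0 and 38.0 FPKM in CD44+/+ and 27.2, 29.7 and 32.9 FPKM in CD44-/- AMs, also without overlap (log2 fold change -0.48, limma adjusted p = 0.126). Neither was highest in CD44-/- replicate 3. Of 14 keratin and junction genes, 11 were tested and 0 passed (5 higher, 6 lower, median -0.02), and 3 of 11 (Epcam and Cldn18 higher, Cdh1 lower) had an unadjusted limma p under 0.05, against the same 7.69%. Krt19 lay at 550 to 644 FPKM, Epcam at 45.0 to 96.1 FPKM, and Cldn18 did not overlap (log2 fold change 0.89, limma adjusted p = 0.586). The other keratins of the list were far lower than Krt19, with Krt7, Krt8 and Krt18 between 1.14 and 3.63 FPKM, and Krt19 varied 1.17-fold over the samples. Fibroblast and endothelial genes summed to between 13.2 and 17.3 FPKM, nearly all from Vwf, and Cdh5 was listed at 0 in every sample.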
